A study of Mus musculus with 12 samples.

Results

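The miR-30 family and miR-384-5p were followed in small-RNA libraries of the mouse hippocampus, as 10 mature strands chosen by name from the 1908 miRNAs of the deposited count table. Of these, 6 were 5p strands that share a seed, mmu-miR-30a-5p, mmu-miR-30b-5p, mmu-miR-30c-5p, mmu-miR-30d-5p, mmu-miR-30e-5p and the neuronal mmu-miR-384-5p. The other 4 were the opposite strands mmu-miR-30a-3p, mmu-miR-30b-3p, mmu-miR-30d-3p and mmu-miR-30e-3p; the species prefix is left out from here on. All 10 had enough counts to be tested, among 521 miRNAs that did. The libraries came from 12 male C57BL/6 mice aged 3 months, 6 wild type (WT) and 6 lacking Gld2 in the germ line (GLD2-/-, titled GLD2KO), all littermates of heterozygous matings. The product of Gld2 is a nucleotidyltransferase that extends RNA 3′ ends with adenosine, and the study asked what it does to miRNAs. The loss is not limited to 1 cell type, whole hippocampi were used, and neither 3′ additions nor the Gld2 mRNA were analysed here, so genotypes are as labelled.

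A miRNA hairpin yields a 5p and a 3p strand, of which 1 is usually kept by Argonaute and guides it to target mRNAs through the seed, bases 2 to 8 counted from the 5′ end. Strands with the same seed can share targets even when they come from unrelated hairpins. In mammals the 5p strands of miR-30 are the usual guides; described targets include the autophagy gene Beclin 1 for miR-30a and the osteoblast factor Runx2 for miR-30c. In rodent hippocampus miR-384-5p has been described as a regulator of long-lasting synaptic potentiation.

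Mature sequences are shown because the 5p and 3p strands behaved differently in these libraries and the seed is what the 6 members of the first set have in common. RefSeq sequences (GRCm38.p6) were available for 6 of the 10 members and are written 5′ to 3′ with the seed in capitals.
miR-30a-5p: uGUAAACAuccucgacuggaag
miR-30e-5p: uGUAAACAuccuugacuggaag
miR-30c-5p: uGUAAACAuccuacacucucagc
miR-384-5p: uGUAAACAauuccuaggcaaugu
miR-30a-3p: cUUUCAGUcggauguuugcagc
miR-30e-3p: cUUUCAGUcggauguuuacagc
The 4 sequenced 5p strands had the seed GUAAACA, and after it miR-384-5p was unlike the others. With positions counted from 1 at the 5′ end, miR-30a-5p and miR-30e-5p differed by C13U alone, with 21 of 22 bases identical, and miR-30c-5p matched miR-30a-5p at 17 of 22. miR-384-5p matched miR-30a-5p at 12 of 22, with the first 8 in common. The 3p strands miR-30a-3p and miR-30e-3p had another seed, UUUCAGU, and differed by G18A alone. Among the 1603 miRNAs of the table with a sequence, 0 non-members had either of these seeds.

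The hairpins lie at 4 places of the genome (GRCm38). Mir30a (chr1:23272269-23272339, plus strand) lies within no other annotated gene on its strand, and Mir30c-2 (chr1:23291701-23291784, plus) lies 19.4 kb away in an exon of the lincRNA Gm27028. Mir30c-1 (chr4:120769534-120769622, minus) and Mir30e (chr4:120772606-120772697, minus) lie in introns of Nfyc, which encodes a subunit of the transcription factor NF-Y, 2.98 kb apart. Mir30b (chr15:68337415-68337510, minus) and Mir30d (chr15:68341208-68341289, minus) are 3.70 kb apart, Mir30d in an exon of the lincRNA Gm20732. On the same strand Mir30b partly overlaps the annotated gene Gm26621, and Mir30d partly overlaps Gm37296. Mir384 (chrX:105344282-105344369, minus) overlaps no other annotated gene on its strand, and genes near it were not searched for. The mature miR-30c-5p is the same from both of its hairpins, so its counts join chromosomes 1 and 4. Both strands of Mir30a, Mir30e and Mir384 are shown in capitals within their hairpins, as the strand ratios below compare the capital stretch on the left with the one on the right.
Mir30a: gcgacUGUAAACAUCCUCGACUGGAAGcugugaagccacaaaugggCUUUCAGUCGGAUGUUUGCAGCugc
Mir30e: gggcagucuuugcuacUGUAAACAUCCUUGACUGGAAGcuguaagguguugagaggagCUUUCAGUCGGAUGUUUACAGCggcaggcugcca
Mir384: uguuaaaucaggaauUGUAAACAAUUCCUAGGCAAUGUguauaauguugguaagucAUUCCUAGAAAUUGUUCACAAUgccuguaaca

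Libraries held between 2197915 and 3761106 counts. Levels are CPM, counts scaled to 1000000 per library after TMM adjustment, so only relative abundance is seen, and in bulk tissue fewer cells of a type and less RNA per cell cannot be told apart. Ligation and trimming affect strands unequally, so levels of different strands are compared only as counts. The 6 neuronal markers, miR-124-3p among them, summed to between 117905 and 375762 CPM in all 12 libraries, and muscle markers to at most 148 CPM. WT replicate 1, GLD2KO replicate 1 and GLD2KO replicate 5 stood apart in the 5p strands, as described below. The genotype comparisons, order and correlations are therefore also given without these 3 libraries, an alternative added after the data were seen. As the libraries were picked for their low 5p strands, values without them describe what remains and are no independent check.

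The 5p strands of miR-30 were the abundant members, led by miR-30c-5p. Its level ran from 1649.9 CPM through a median of 3106 to 10014 CPM in WT and from 410 through 4138 to 7408 CPM in GLD2KO. WT replicate 5 held the highest value and GLD2KO replicates 1 and 5 the lowest, at 410 and 487 CPM. By mean CPM it ranked 42nd of the 521 tested miRNAs. The ranges of the genotypes overlapped for every member.

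Of the other miR-30 5p strands, miR-30d-5p stood at 684, 2486 and 3193 CPM in WT (lowest, median and highest of 6) and at 230, 1773 and 3677 CPM in GLD2KO. Corresponding levels of miR-30a-5p were 836, 1815 and 3823 CPM in WT and 209, 1264 and 4999.8 CPM in GLD2KO. In both strands the lowest WT value was that of replicate 1, and GLD2KO replicates 1 and 5 lay below every WT library. miR-30e-5p was at 461, 2005 and 2629.7 CPM in WT and 155, 1784 and 2948 CPM in GLD2KO. For miR-30b-5p the values were 463, 1472 and 3630.4 CPM in WT and 137, 1566 and 2240.4 CPM in GLD2KO. Here the lowest WT library was replicate 4, in which miR-30d-5p, from the neighbouring hairpin, stood at 2746 CPM.

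The level of miR-384-5p was lower, at 147, 372 and 470.3 CPM in WT and 24.0, 213 and 1129 CPM in GLD2KO. GLD2KO replicate 4 was highest by far and GLD2KO replicates 1 and 5 lowest, with 49 and 100 counts. The highest library exceeded the lowest by 47.1-fold for miR-384-5p, and by 15.97-fold (miR-30d-5p) to 26.5-fold (miR-30b-5p) for the others with this seed.

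The 3p strands fell into an abundant and a rare pair. miR-30e-3p stood at 301, 527 and 1231 CPM in WT and 237, 535 and 1896 CPM in GLD2KO, and miR-30a-3p at 292, 429 and 1093 CPM and 245, 471 and 1558 CPM. Both were highest in WT replicate 3 and GLD2KO replicate 4, and lowest in WT replicate 2 and GLD2KO replicate 6. The rare miR-30d-3p had means of 13.5 ± 7.24 CPM in WT and, among GLD2KO libraries, 16.7 ± 6.92 CPM (SD, n = 6 each), and miR-30b-3p of 6.06 ± 3.51 and 7.95 ± 4.02 CPM. The highest library exceeded the lowest by 3.99-fold to 8.01-fold over the 4 strands. Of strands that are no members, miR-30c-1-3p and miR-30c-2-3p had means over the 12 libraries of 12.5 and 22.0 CPM, and miR-384-3p of 766 CPM, above its 5p partner.

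**Figure D1:**
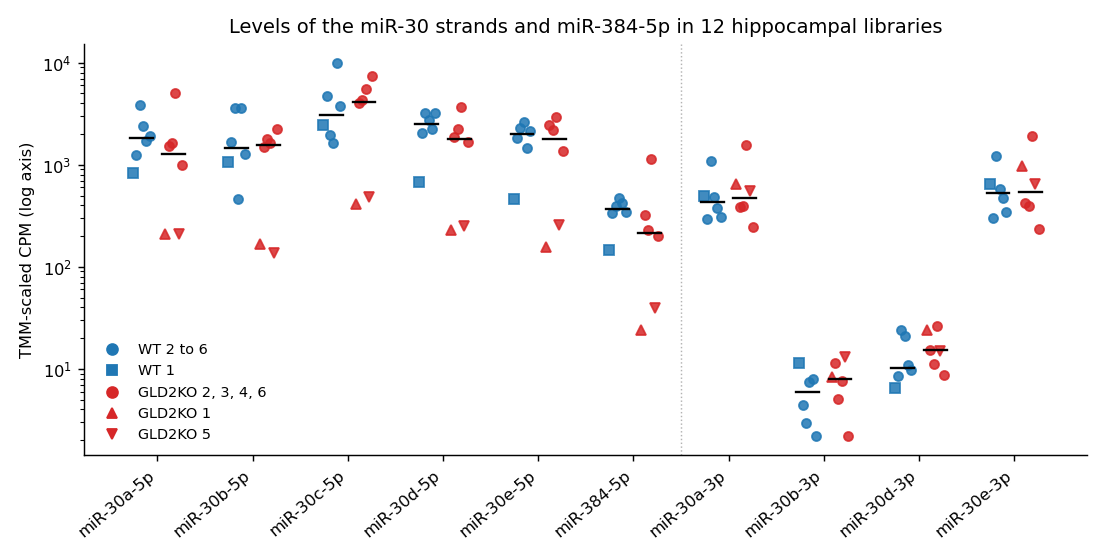
TMM-scaled CPM on a log axis of each member in each of 12 libraries, 5p strands left of the dotted line and 3p strands right of it; points are libraries and short lines group medians. GLD2KO replicates 1 and 5 (triangles) lie lowest of all libraries for all 6 shared-seed strands and for none of the 4 3p strands.

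Ordered by mean CPM, the members ran from miR-30c-5p at 3890 CPM (mean of 12 libraries) over miR-30d-5p, miR-30a-5p, miR-30e-5p, miR-30b-5p, miR-30e-3p, miR-30a-3p, miR-384-5p and miR-30d-3p to miR-30b-3p at 7.01 CPM. Of the 9 neighbouring pairs in that order, 3 had a mean log2 ratio larger than its SD over the 12 libraries. These were miR-30e-3p over miR-30a-3p (0.21 ± 0.18, higher in 11 of 12 libraries), miR-384-5p over miR-30d-3p (3.999 ± 1.64, 11 of 12) and miR-30d-3p over miR-30b-3p (1.09 ± 0.93, 11 of 12). Without the 3 libraries 4 of 9 neighbouring pairs did so. Over all 12 the other 6 pairs did not differ beyond that spread: miR-30a-5p, for instance, exceeded miR-30e-5p in 5 of 12 libraries (0.02 ± 0.55).

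In GLD2KO replicates 1 and 5 all 6 shared-seed strands were low together while none of the 4 miR-30 3p strands was. Deviations here are log2 CPM minus a strand's own median over the 12 libraries, and were ranked among 225 miRNAs whose mean reached 100 CPM. In GLD2KO replicate 5 the 6 strands lay between -3.51 (miR-30b-5p) and -2.92 (miR-30a-5p), and they were the 6 lowest of the 225. In GLD2KO replicate 1 they lay between -3.74 (miR-384-5p) and -2.91 (miR-30a-5p), at ranks 2 to 7 from the bottom; the only lower miRNA was miR-346-5p. In linear terms miR-384-5p stood 13.4-fold and 8.15-fold below its median in replicates 1 and 5, and miR-30e-5p 12.8-fold and 7.68-fold. The 4 miR-30 3p strands lay above their medians there, by 0.13 to 0.90 in replicate 1 and by 0.21 to 0.75 in replicate 5. The 3p partner of miR-384-5p, miR-384-3p, lay below its median in both, at -0.58 and -1.39.

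The WT library with the same tendency was replicate 1, where all 6 lay below their medians, from -2.12 (miR-30e-5p) and -1.65 (miR-30d-5p) to -0.56 (miR-30b-5p). Only miR-30e-5p and miR-30d-5p were among the 10 lowest of that library. Its 3p strands were mixed, with miR-30d-3p at -0.92 and the other 3 above their medians. In the other 9 libraries the median of the 6 strands lay between -0.46 and 0.67, and at most 1 of them (miR-30b-5p in WT replicate 4, at -1.76) was among the 10 lowest miRNAs.

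**Figure D2:**
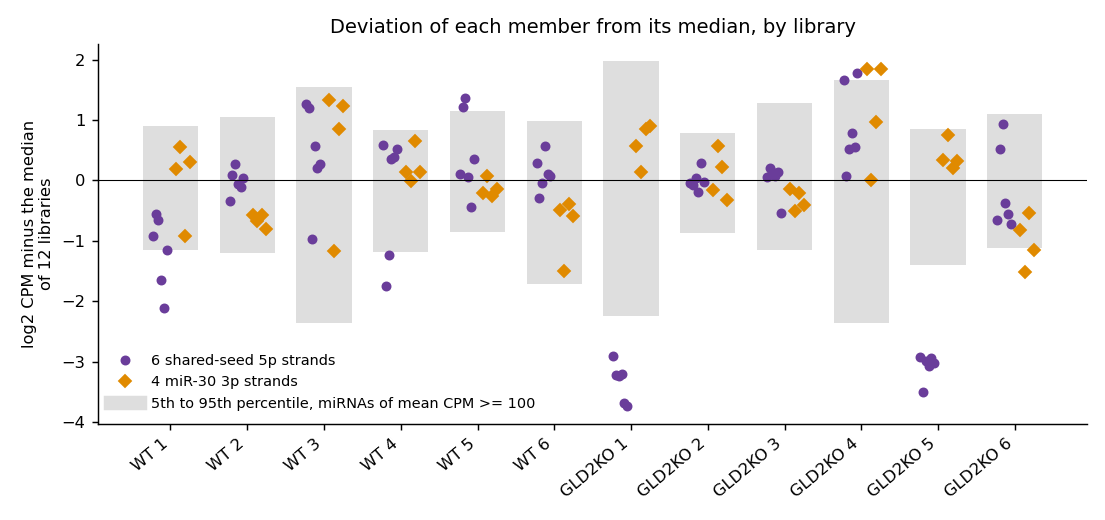
Log2 CPM of each member minus its median over 12 libraries, by library; circles are the 6 shared-seed 5p strands, diamonds the 4 miR-30 3p strands, and grey bars span the 5th to 95th percentile of the 225 ranked miRNAs. In GLD2KO replicates 1 and 5 the circles lie under the grey bar, whose lower ends are at -2.24 and -1.40, and the diamonds above 0.

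These libraries were not low in 5p strands at large. The 104 other 5p strands of at least 100 CPM had median deviations of -0.05 in GLD2KO replicate 1 and -0.00 in replicate 5, and the 108 other 3p strands of 0.21 and 0.04. By seed, 7 seeds were held by 3 or more such miRNAs with a known sequence, GUAAACA by the 4 sequenced members. The median of GUAAACA was the lowest of the 7 in GLD2KO replicate 1 (-3.46, next ACCCGUA at -0.24), in GLD2KO replicate 5 (-2.97, next AGCAGCA at -0.96) and in WT replicate 1 (-1.04, next AGCAGCA at -0.82). It was also lowest in GLD2KO replicate 6, at -0.61 against -0.34. This ranking was chosen after the deviations were seen. The 2 other abundant strands known to start with UGU, as the sequenced 5p members do, were also low in GLD2KO replicate 1, miR-346-5p at -4.08 and miR-668-3p at -2.16, and lay between -0.87 and -0.51 in replicate 5. The 28 such strands starting with UG had medians of -0.87 and -0.22 in these libraries, and the 84 starting with U of -0.13 and -0.18. In WT replicate 1 none of these sets was low. The strands starting with UGU lay between 0.002 and 0.17 there, and the medians were 0.26 for UG and 0.09 for U. What part the start of a strand played was not tested.

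As a whole GLD2KO replicate 5 resembled the other libraries, with a median correlation of log2 CPM to them of 0.941 across miRNAs, against 0.906 in GLD2KO replicate 1 and 0.906 to 0.956 over all 12. The neuron markers, 6 of 6 detected, summed to 293615 and 223359 CPM in GLD2KO replicates 1 and 5, inside the WT range. So did the 3 oligodendrocyte markers (30583 and 9309 CPM, WT 8810.0 to 40409) and the 4 vascular markers (10210.3 and 6642 CPM, WT 4802 to 16047). The 4 choroid plexus and cilia markers stood at 1198 CPM in replicate 1, under the WT range of 1508 to 5264, and at 4835 CPM in replicate 5. Muscle markers (22.5 CPM, WT 43.4 to 148) and the liver marker (1.47 CPM, WT 4.90 to 16.6) were also under the WT range in replicate 1, and inside it in replicate 5 (119.7 and 7.16 CPM). Red blood cell markers, at 3141 and 3329 CPM, lay within the WT range of 652 to 22943. Of 3 microglial markers 1 was matched by its listed name, miR-223-3p, at 20.04 and 33.8 CPM, with 6.94 to 352 in WT. The others were listed as miR-142a-3p and miR-142a-5p and were not summed, although the count table holds miR-142-3p and miR-142-5p. What part any of these played in the low 5p strands was not tested.

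Of all counts, the 6 shared-seed strands together made up 1.29 ± 0.612% for WT and 1.04 ± 0.718% for GLD2KO (SD over 6 libraries of each genotype). In WT replicate 1 the share was 0.422% (95% Wilson interval 0.415 to 0.429%), in GLD2KO replicate 1 0.0976% (0.0938 to 0.1016%) and in GLD2KO replicate 5 0.158% (0.153 to 0.164%). The other 9 libraries held between 0.958 and 2.21%, so the gap is far wider than counting error, which is all these intervals cover. Without the 3 libraries the shares were 1.46 ± 0.494% in WT (n = 5) and 1.498 ± 0.153% in GLD2KO (n = 4). As log2 summed CPM the genotypes differed by -0.88, where the pooled SD of single libraries within genotypes was 1.35. That SD is wider than the error of a difference between means, so it does not show how certain the difference is. Without the 3 libraries the difference was 0.06, and no test was made of this sum.

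The make-up of the pool in GLD2KO replicates 1 and 5, its smallest libraries, was near the median make-up. Of their shares, that of miR-30b-5p in GLD2KO replicate 5 was farthest from it. In GLD2KO replicate 1, miR-30c-5p made up 34.2% of the summed CPM, miR-30d-5p 19.2%, miR-30a-5p 17.5%, miR-30b-5p 14.0%, miR-30e-5p 13.0% and miR-384-5p 2.002%. The medians over the 12 libraries were 34.4, 18.2, 14.9, 14.0, 15.3 and 2.68% in the same order. In GLD2KO replicate 5 the shares were 35.2, 18.3, 15.1, 9.88, 18.7 and 2.87%. WT replicate 1, the next smallest, was less near the medians, at 43.5, 12.1, 14.8, 18.8, 8.16 and 2.61%. Wider departures came from other libraries: miR-30c-5p took 53.4% in GLD2KO replicate 6 and 12.9% in WT replicate 3, and miR-30b-5p took 4.48% in WT replicate 4.

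Strand ratios, the 5p count over the 3p count on the log2 scale, showed the same libraries within each hairpin, where both strands derive from 1 precursor. For miR-30a the ratio was 0.75 to 2.64 in WT, and in GLD2KO it was -1.61 in replicate 1, -1.40 in replicate 5 and 1.68 to 2.06 in the other 4. The 5p strand thus outnumbered the 3p strand in 10 libraries and was outnumbered in 2. For miR-30e it was -2.65 and -1.33 in GLD2KO replicates 1 and 5, -0.49 in WT replicate 1, and 0.64 to 2.64 elsewhere. The other hairpins favoured 1 strand throughout. miR-30d, with medians over the 12 libraries of 7.08, reached 3.25 and 4.05 in GLD2KO replicates 1 and 5, and miR-30b, with 8.08, reached 4.29 and 3.36. miR-384 favoured its 3p strand in every library, from -4.38 in GLD2KO replicate 1 and -2.85 in replicate 5 to -0.31 in GLD2KO replicate 4. Deviations from each hairpin's own median ratio were ranked from the lowest among 167 hairpins averaging 10 counts or more in both arms. In GLD2KO replicate 1 the ranks ran from 2 (miR-30e) to 12 (miR-384), with miR-30a at 8. In replicate 5 they ran from 1 (miR-30b) to 14 (miR-384). Some other hairpins thus fell further. The SD of the ratio within genotypes ranked from 6 (miR-30b) to 102 (miR-384) from the most variable.

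**Figure D3:**
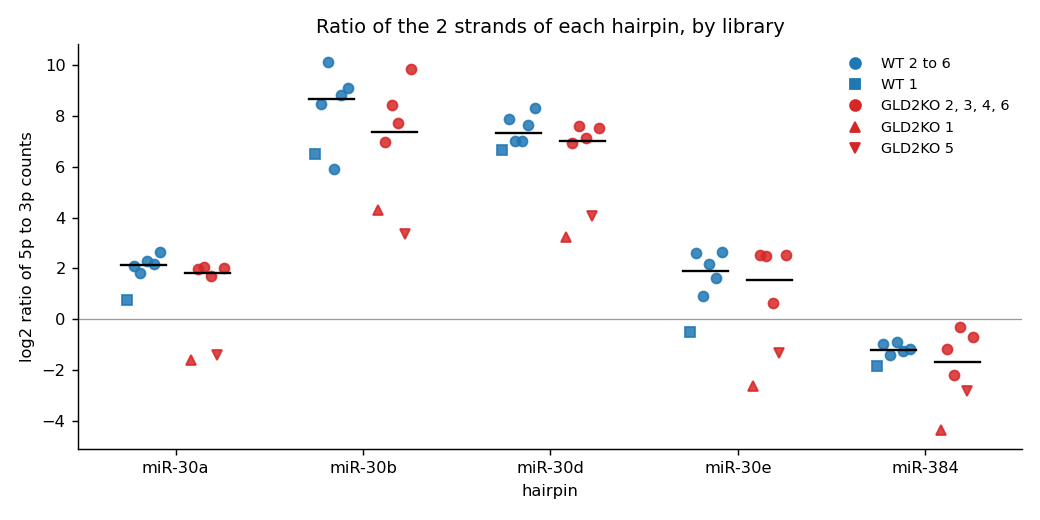
Log2 ratio of 5p to 3p counts (pseudocount 0.5) of 5 hairpins in each of 12 libraries, with short lines at group medians. For each hairpin GLD2KO replicates 1 and 5 (triangles) hold the lowest ratios, and for miR-30a and miR-30e these lie below 0, where 3p counts exceed 5p counts.

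The ratios did not pass a test of genotype. Among 167 hairpins whose arms both averaged 10 counts or more, limma called 0 (0%) at a Benjamini-Hochberg adjusted p of 0.05, and 2 (1.2%) at an unadjusted p under 0.05, none of them a miR-30 or miR-384 hairpin. Differences, GLD2KO minus WT, were -1.39 for miR-30b (SE 1.002), -1.35 for miR-30d (SE 0.76), -1.17 for miR-30a (SE 0.73), -0.88 for miR-30e (SE 0.89) and -0.68 for miR-384 (SE 0.65), each with a limma adjusted p of 0.922. The narrowest 95% interval, that of miR-384, ran from -2.05 to 0.69. Without WT replicate 1 and GLD2KO replicates 1 and 5 the 5 differences lay between -0.28 and 0.05. Without GLD2KO replicate 1 alone they lay between -0.89 and -0.19, and without GLD2KO replicate 5 alone between -0.94 and -0.48.

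No member passed the test for a difference in level between genotypes. In edgeR's quasi-likelihood test 0 of 521 miRNAs (0%) were called at an adjusted p of 0.05; an unadjusted p under 0.05 was seen for 25 (4.8%), none of them a member. DESeq2, run without that low-count filter, called 0 of 1317, with 45 at an unadjusted p under 0.05. For limma-voom the numbers were 0 of 521 and 23. Of the 10 members 0 had groups of libraries that did not overlap, against 0.576% of all tested miRNAs. Each of the 6 shared-seed strands had a negative log2 fold change (GLD2KO minus WT) and each of the 4 3p strands a positive one, where 58.7% of all tested miRNAs were positive and their median was 0.12.

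Among the 5p strands, miR-30b-5p averaged 1951 ± 1348 CPM across WT and 1247 ± 885 CPM across GLD2KO libraries (SD, n = 6 each). Its log2 fold change was -0.65 with an SE of 0.63 (edgeR adjusted p = 0.978). For miR-30d-5p, at 2350.5 ± 944 and 1658 ± 1302 CPM, it was -0.50 (SE 0.58, edgeR adjusted p = 0.978). Values were -0.31 for miR-30a-5p (SE 0.63), -0.22 for miR-30e-5p (SE 0.59), -0.15 for miR-30c-5p (SE 0.63) and -0.13 for miR-384-5p (SE 0.66). The 3p strands lay between 0.31 (miR-30a-3p, SE 0.47) and 0.39 (miR-30b-3p, SE 0.48). All 10 had edgeR adjusted p values of 0.978 or 0.990. Non-member strands of these hairpins had log2 fold changes of 0.18 (miR-30c-1-3p), 0.52 (miR-30c-2-3p) and -0.20 (miR-384-3p).

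These signs rested on few libraries. Without GLD2KO replicate 1 or 5 alone, 3 of the 6 shared-seed strands were negative, between -0.43 and 0.11 and between -0.40 and 0.12; without WT replicate 5 the value of miR-30c-5p was 0.35. Without WT replicate 1 and GLD2KO replicates 1 and 5, 2 were negative (miR-30b-5p at -0.26 and miR-30d-5p at -0.19) and 4 positive, up to 0.26 (miR-30c-5p), with 0 of 537 miRNAs called by edgeR and 16 at an unadjusted p under 0.05. In limma-voom, which averages logs, the 6 shared-seed strands lay between -1.06 and -0.56. Without GLD2KO replicate 4 the 6 shared-seed strands lay between -1.14 and -0.26, miR-30a-3p was at -0.23 and miR-30e-3p at -0.18.

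**Figure D4:**
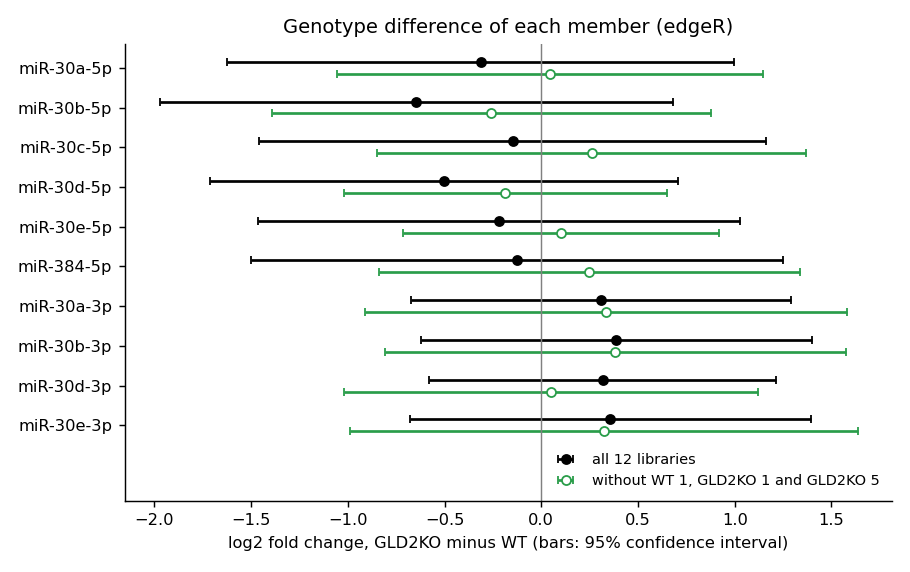
Log2 fold change, GLD2KO minus WT, of each member in edgeR with its 95% confidence interval, for all 12 libraries (filled) and without WT replicate 1 and GLD2KO replicates 1 and 5 (open, 5 WT and 4 GLD2KO). Every interval includes 0, and the 6 shared-seed strands lie closer to 0 or above it without the 3 libraries.

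The precision for the shared-seed strands was low. Half-widths of the 95% intervals were 1.21 to 1.37 on the log2 scale for the 6 shared-seed strands, 0.90 to 1.04 for the 3p strands, and 0.96 in the median over all tested miRNAs. An interval within a 2-fold change either way was reached by 0 of the 10 members and 17.1% of all tested miRNAs. For miR-30c-5p it ran from a 0.364-fold to a 2.24-fold level in GLD2KO. Without the 3 libraries the half-widths of the shared-seed strands were 0.82 to 1.14, near the median of 1.10 over all tested miRNAs. Those of the 3p strands were then 1.07 to 1.31. An interval within a 2-fold change was reached there by 1 member and 4.84% of all tested miRNAs.

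Within genotypes the SD of log2 CPM was 1.35 to 1.53 for the 6 shared-seed strands, ranks 10 to 22 from the most variable of 225, where the median was 0.79. Without the 3 libraries it was 0.39 (miR-30e-5p, rank 209) to 0.94 (miR-30b-5p, rank 65), with a median of 0.72 over the 225. The high ranks thus came from those libraries. As a comparison list, 13 abundant brain miRNAs such as let-7c-5p, miR-124-3p and miR-26a-5p had log2 fold changes between -0.51 and 0.30 with a median of -0.06, 5 of 13 positive, and 4 of them had an interval within a 2-fold change.

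Correlations of log2 CPM between members were computed over the 12 libraries for all 45 pairs, with two-sided permutation tests of 100000 resamples adjusted over the pairs. All 15 pairs of shared-seed strands had a positive r, from 0.68 to 0.98, and all 15 passed by Pearson's r, 7 by Spearman's rho. Of the 24 pairs of a 5p with a 3p strand 0 passed by either measure, with r from -0.53 to 0.27 and an unadjusted permutation p for r of at least 0.0715. The 5p pairs rested in part on GLD2KO replicates 1 and 5, the libraries farthest from the median of every 5p strand: over the other 10 libraries their r ran from -0.19 to 0.92, with a median of 0.14. Over the 9 libraries that also leave out WT replicate 1 it ran from -0.65 to 0.90, with a median of -0.01. The 5p with 3p pairs moved the other way, from a median r of -0.12 over 12 libraries to 0.16 over 10 and 0.55 over 9, with a highest r of 0.92 and 0.97.

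Without those libraries the 5p strands parted into groups. miR-30a-5p, miR-30d-5p, miR-30e-5p and miR-384-5p, from chromosomes 1, 15, 4 and X, still had r between 0.71 and 0.92 with each other, and between 0.61 and 0.90 over the 9. For miR-30a-5p with miR-384-5p, r was 0.96 and rho 0.93 over 12 libraries (permutation p = 2e-05 and 4e-05, adjusted p = 0.00015 and 0.0006) and r was 0.87 over the 10. miR-30d-5p and miR-30e-5p had r 0.98 and rho 0.83 (permutation p = 5e-05 and 0.00165, adjusted p = 0.00032 and 0.0124), and 0.92 over the 10. Against these 4, miR-30b-5p and miR-30c-5p had r between -0.19 and 0.14 over the 10 libraries and between -0.65 and -0.01 over the 9. With each other they had r 0.88 and rho 0.77 (permutation p = 0.00072 and 0.0049, adjusted p = 0.00405 and 0.0276), and 0.57 over the 10 and 0.53 over the 9. How reads matching more than 1 miRNA were counted is not known, and miR-30a-5p and miR-30e-5p differ by C13U alone. Strands within a group may therefore not have been counted separately. For miR-30b-5p and miR-30d-5p no sequence was available, so their likeness to the others was not compared.

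Pairs of 5p strands from neighbouring hairpins had low r over those 10 libraries. The neighbours miR-30b-5p and miR-30d-5p of chromosome 15 had r 0.14, and miR-30c-5p had r -0.01 with miR-30e-5p and -0.19 with miR-30a-5p. Over all 12 libraries these r were 0.80, 0.74 and 0.68 (permutation adjusted p = 0.0236, 0.0287 and 0.0394). Counts of miR-30c-5p join both of its hairpins, so its pairs show neither locus alone. What part a shared locus played was not tested. For strands of 1 hairpin, miR-30a-5p with miR-30a-3p had r 0.82 over the 10 libraries, against 0.27 over all 12 (permutation p = 0.403, adjusted p = 0.600). For miR-30d the values were 0.72 and 0.00, for miR-30e 0.20 and -0.15, and for miR-30b -0.32 and -0.51. Leaving out WT replicate 1 as well changed miR-30e most, as over the 9 libraries r was 0.96 for miR-30a, 0.67 for miR-30d, 0.67 for miR-30e and -0.24 for miR-30b. Over all 12 libraries 0 of these 4 pairs passed, and no difference between these correlations was tested.

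Among the 3p strands, miR-30a-3p and miR-30e-3p moved almost as 1, with r 0.98 and rho 0.97 (both with permutation p = 1e-05, the smallest the test can give; adjusted p = 0.00015 and 0.00045) and r 0.98 without the libraries farthest from the median, WT replicate 3 and GLD2KO replicate 4. Their ratio, miR-30e-3p over miR-30a-3p, stayed between 0.964 and 1.52. These are the strands that differ by G18A alone; how reads matching more than 1 miRNA were counted is not given in the sources used here, so their separate counts are uncertain. The same holds for miR-30a-5p and miR-30e-5p, although no member had the same counts as another miRNA in all 12 libraries.

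**Figure D5:**
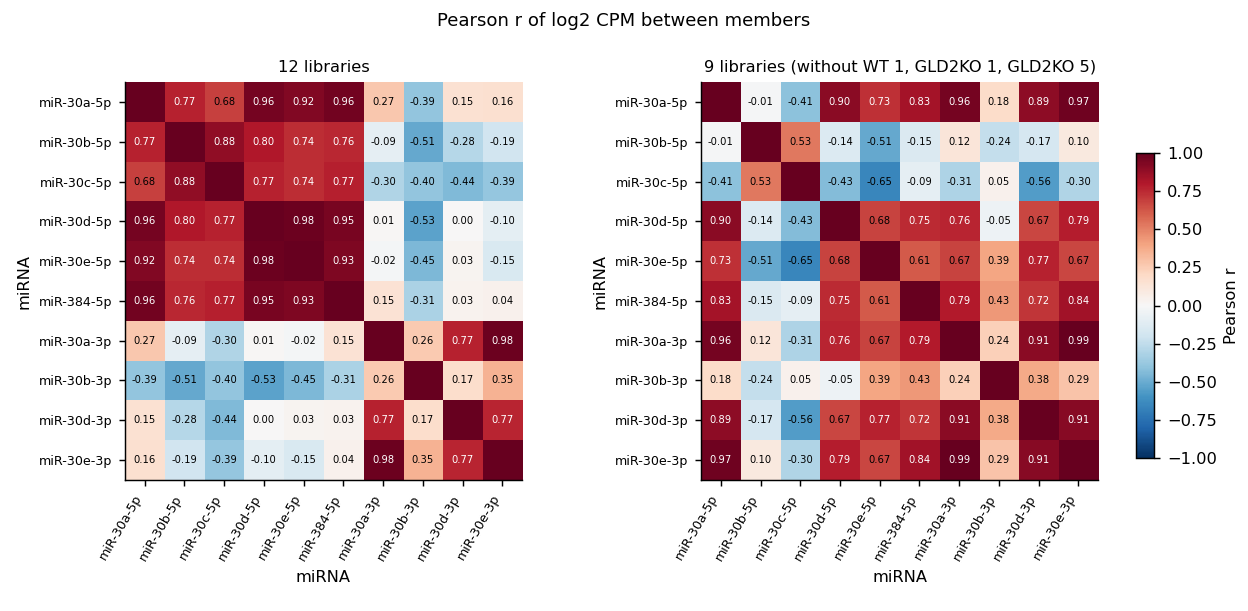
Pearson r of log2 CPM for every pair of members over 12 libraries (left) and over 9 (right, without WT replicate 1 and GLD2KO replicates 1 and 5); axes list the miRNAs, and colour gives r from -1 to 1. On the left the 6 shared-seed strands form a block of r from 0.68 to 0.98; on the right miR-30b-5p and miR-30c-5p leave it, while miR-30a-5p reaches 0.96 with miR-30a-3p.

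Of 217 non-members with a mean of at least 100 CPM, the most similar to miR-384-5p over the 12 libraries were miR-379-5p (r 0.85, rho 0.46, permutation adjusted p = 0.0719 and 0.618), miR-668-3p (r 0.81, rho 0.76, adjusted p = 0.0719 and 0.180) and miR-15a-5p (r 0.76, rho 0.71, adjusted p = 0.101 and 0.267). Without GLD2KO replicates 1 and 5 their r was 0.57, 0.60 and 0.58, and without WT replicate 1 as well 0.56, 0.64 and 0.37. For the summed shared-seed level they were miR-185-5p (r 0.78, rho 0.63), miR-379-5p (r 0.77, rho 0.38) and miR-15a-5p (r 0.74, rho 0.67), with permutation adjusted p values of 0.174, 0.171 and 0.174 for r and 0.3197, 0.719 and 0.293 for rho, and r of 0.43, 0.28 and 0.60 without those 2 libraries and 0.36, 0.22 and 0.22 without all 3. None of the 217 passed for either.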

How the data were processed

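Per the labels' protocols, hippocampal total RNA was TRIzol-extracted, a gel-isolated size fraction was made into barcoded libraries and sequenced on an Illumina HiSeq; the sources differ on the lower size bound. Trimmomatic 0.32, cutadapt 1.3 and GRCm38 are listed in the submitters' processing notes; which aligner and counter were used, and how multi-matching reads were handled, is not given in the sources used here. The authors deposited 1 table of counts, whole numbers for each mature miRNA in each library with no normalization; a row naming no miRNA (0 counts) was left out. Columns were matched to samples by title. The series' design text gives 6 mice per genotype, and no batch is labelled.

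The main test was that of edgeR 4.0.16 under R 4.3.3 (TMM, filterByExpr, glmQLFit, glmQLFTest; 521 miRNAs, 99.96% of counts), genotype as the only term, Benjamini-Hochberg over all, threshold 0.05. Arm ratios (pseudocount 0.5) used limma 3.58.1; log2 CPM used a prior count of 2. DESeq2 1.42.0 and limma-voom were alternatives. Tests were checked on simulated data. Members, lists and named strands (all members, their hairpin partners, the 3 most correlated non-members) were chosen with earlier results of these data known. Loci came from GENCODE M21 (GRCm38). Shared replicate numbers were not treated as pairs in the main test. Of 6 same-number pairs 2 had correlated deviations above 0.1, the highest being replicate 1 at 0.24. Pairs of unlike numbers were not compared, so this cannot show that samples were unpaired.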

Additional observations from a re-analysis of the deposited data

Results flagged for a closer look

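Of 52 groups of 6 libraries checked for 1 library far from the other 5, 10 had one. For normally distributed values chance gives about 1 in 20, or 2.6. CPM and shares on a linear scale need not be normal, so 10 against 2.6 is no measure of excess. All 10 were the highest library of such a measure, and none was for a log2 strand ratio. The measures also overlap, so these are not independent. GLD2KO replicate 4 held 4999.8 CPM of miR-30a-5p, where the remaining GLD2KO libraries held 209 to 1638 CPM. It had miR-384-5p at 1129 against 24.0 to 322 CPM, and miR-30a-3p at 1558 against 245 to 643 CPM, and miR-384-5p took 5.66% of the shared-seed sum against 1.44 to 2.87%. In WT replicate 3, miR-30a-3p stood at 1093 CPM against 292 to 498 CPM, miR-30e-3p at 1231 against 301 to 646 CPM, and the 4 miR-30 3p strands together at 2351 against 605 to 1161 CPM. In WT replicate 5, miR-30c-5p stood at 10014 CPM against 1649.9 to 4691 CPM. The share of miR-30c-5p in the shared-seed sum was 53.4% in GLD2KO replicate 6 against 27.8 to 35.2%, and that of miR-384-5p was 4.55% in WT replicate 4 against 2.16 to 2.84%. The low 5p strands of GLD2KO replicates 1 and 5 do not appear here, since a gap to the nearest library cannot mark a pair of low libraries.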

How the results depend on the processing

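Of 365 recomputed values, 358 were labelled the same, by a loose rule. Counts could shift somewhat, and the summed shared-seed level by less than its pooled SD of 1.35. That SD is wider than the error of the difference between genotypes. Other values could move any distance if neither sign nor call changed. The log2 fold change of miR-384-5p, for instance, went from -0.13 to -1.12 without GLD2KO replicate 4. Of 16 sign changes 12 were within the SE or that SD. The count of miRNAs called was 0 under each alternative except with no low-count filter, which called 7 of 1325 and no member. With the replicate number as a block it was also 0, for levels and for arm ratios, and the 6 shared-seed strands lay between -1.04 and -0.33. The number of correlated member pairs, 18 of 45, lay between 10 and 18 without each library in turn, with 10 reached without GLD2KO replicate 1 and again without replicate 5. Without each library in turn miR-30a-3p ran from -0.23 to 0.71 and miR-30e-3p from -0.18 to 0.73, the lowest values without GLD2KO replicate 4. Without WT replicate 1 and GLD2KO replicates 1 and 5 the arm ratio differences of miR-30e and miR-384 were 0.046 each. GLD2KO replicates 1 and 5, left out there, hold the lowest ratios of both hairpins. Why those ratios are low was not tested. Low counts limit miR-30b-3p, with 5 to 33 counts in a library.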
